A study of Malus domestica with 18 samples.

Results

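The CYP86 fatty acid hydroxylase genes of apple skin are described here through 4 genes, chosen by their gene IDs from the 2856 genes of the deposited table. These were MD03G1073600, described as cytochrome P450 86A1 (CYP86A1), MD11G1079600 (CYP86A1-like), MD13G1004700 (CYP86B1-like) and MD01G1064900 (CYP86A8). RNA-seq measured the skin of "Golden Delicious" fruit, a cultivar of Malus domestica, that was bagged (T) or left unbagged as the control (CK). Bagged fruit carried double-layered paper bags that let no light through, put on at DAF20 (20 days after flowering), and unbagged fruit stayed exposed on the trees. T1 and CK1 were sampled at DAF30, T2 and CK2 at DAF60, and T3 and CK3 at DAF150. Every group had 3 libraries, which made 18 in all. Each sample mixed the peel of 3 fruits, and 3 trees served as replicates of each treatment, but whether these were the same trees across stages is not given.

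CYP86 enzymes are cytochrome P450s that add a hydroxyl group to the far end (omega position) of fatty acids, and the omega-hydroxy acids made in this way are building blocks of cutin and suberin. Cutin is the polyester of the cuticle over the epidermis. Suberin is the polyester of corky cell walls, which in apple skin form the periderm known as russet. In Arabidopsis, CYP86A1 and CYP86B1 supply omega-hydroxy acids to suberin, CYP86B1 acting on very long chains, whereas CYP86A8 is known from cuticle formation in the shoot.

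Expression was given as FPKM, a measure that corrects fragment numbers for gene length and library size, so that levels could be compared between genes. It gives no fragment numbers, so the depth behind each value is unknown. The table was a selected set, because each of its genes had passed the thresholds of the authors when bagged and unbagged libraries of the 3 stages were set against each other (610 higher and 2246 lower in T). A test of T against CK on these genes is therefore not independent evidence of its direction, and MD03G1073600 and MD13G1004700 were also singled out by the study as suberin genes on these same libraries. Comparisons between stages, and of the T/CK change between stages, were not the contrast on which the table was chosen. They are not free of that choice, because a gene low at DAF30 could pass it mainly through the later stages. All 4 genes were among the 1399 that reached 1 FPKM in 3 or more libraries, which were tested with limma on log2(FPKM + 1). All log2 fold changes below are on this scale, which understates the changes of low genes, and a gene counted as called where its p, adjusted after Benjamini-Hochberg over the 1399 genes, did not exceed 0.05. Library pairs within a group correlated at 0.895 to 0.959 (Pearson), and pairs from different groups at 0.296 to 0.938. The 1399 genes had a median log2 fold change of -0.12 (DAF30), -1.06 (DAF60) and -0.37 (DAF150), so the common shift of this selected table was itself towards lower values in T.

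The positions are those of the GDDH13 v1.1 apple genome. MD03G1073600 lies on chromosome 3 from 5991522 to 5993525 on the minus strand, and MD11G1079600 on chromosome 11 from 6823690 to 6825681 on the minus strand. MD13G1004700 lies on chromosome 13 from 295279 to 297869 on the plus strand, and MD01G1064900 on chromosome 1 from 16871288 to 16872949 on the minus strand. The KEGG annotation deposited with the table calls each of them a fatty acid omega-hydroxylase. Chromosomes 3 and 11 are known as one of the duplicated pairs of the apple genome, and the copies on them share the CYP86A1 description and the KEGG entry. Reads could be split between such copies in the authors' mapping, so the values of the CYP86A1 pair are uncertain to that extent. The gene model of MD03G1073600 also lies inside the span of MD03G1073200 on the same strand (chromosome 3 from 5928800 to 6006203, described as a GDP-mannose transporter), which was listed at 0 in 10 libraries and reached at most 2.36 FPKM.

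Unbagged skin was uneven at the later stages for the 3 genes that were lower under the bag. In CK2 and in CK3, library 2 was the highest and library 3 the lowest of the group for MD03G1073600, MD11G1079600 and MD13G1004700. At DAF30, library 3 was instead the highest, in T1 for the CYP86A1 pair and in CK1 for all 3 genes. The other suberin, cutin and wax genes of the table leaned the same way at DAF60, since 22 of the 28 tested were higher in CK2-2 than in CK2-3 (median difference 0.92 on the log2 scale, against 0 for all genes). In CK3, 19 of these 28 were higher in library 2 than in library 3 (median difference 0.80, against 0.21 for all genes). The main changes of these genes are therefore also given without these libraries, a choice made after seeing the values.

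CYP86A1 (MD03G1073600), the hydroxylase of long-chain suberin monomers, was far lower in bagged than in unbagged skin at DAF60. At DAF30 it was at 0.63, 0.35 and 2.15 FPKM in T1, against 0.25, 0.19 and 0.70 FPKM in CK1. At DAF60 it was at 1.45, 0.95 and 1.00 FPKM in T2, against 16.42, 37.47 and 5.31 FPKM in CK2. At DAF150 it was at 1.86, 1.92 and 2.39 FPKM in T3, against 7.81, 18.27 and 1.52 FPKM in CK3. The groups overlapped at DAF30, stood apart at DAF60 with every T2 library below every CK2 library, and overlapped again at DAF150, where CK3-3 was below all 3 T3 libraries. The T/CK difference at DAF60 had a log2 fold change of -2.93 (standard error 0.62, limma adjusted p = 0.000714). The means were 1.13 ± 0.28 FPKM in T2 and 19.7 ± 16.3 FPKM in CK2 (SD, n = 3 each). At DAF30 the fitted change was 0.48 (adjusted p = 0.838 in limma) and at DAF150 it was -1.31 (95% confidence interval -2.62 to 0.0064, adjusted p = 0.102 in limma). In skin taken as a whole, fewer cells of a type and less RNA per cell cannot be told apart.

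CYP86A1-like (MD11G1079600), the other copy with this description, was at 0.86, 0.67 and 3.37 FPKM in T1, against 0.44, 0.51 and 1.61 FPKM in CK1. At DAF60 it was at 4.56, 4.19 and 4.60 FPKM in T2, against 33.50, 42.28 and 7.52 FPKM in CK2. At DAF150 it was at 4.32, 6.15 and 9.03 FPKM in T3, against 16.59, 35.85 and 6.58 FPKM in CK3. Bagged skin thus kept a narrow level at DAF60 that lay below the lowest unbagged library, and at DAF150 only CK3-3 fell within the range of T3. This copy was lower in T than in CK at DAF60, with a log2 fold change of -2.10 (standard error 0.59, limma adjusted p = 0.00491). Its fitted change was 0.42 at DAF30 (limma adjusted p = 0.871) and -1.23 at DAF150 (95% confidence interval -2.48 to 0.019, limma adjusted p = 0.106). The means at DAF60 were 4.45 ± 0.23 FPKM in T2 and 27.8 ± 18.1 FPKM in CK2 (SD, n = 3 each).

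CYP86B1-like (MD13G1004700), named after the hydroxylase of very long chains, had the lowest mean of the 4 genes in T1, CK1, T2 and T3. It was at 0.44, 0.03 and 0.39 FPKM in T1, against 0.05, 0.05 and 0.16 FPKM in CK1. At DAF60 it was at 0.30, 0.31 and 0.27 FPKM in T2, against 3.96, 6.66 and 1.19 FPKM in CK2. At DAF150 it was at 0.33, 0.42 and 0.51 FPKM in T3, against 2.86, 5.97 and 0.63 FPKM in CK3. All bagged libraries of DAF60 and DAF150 lay below all unbagged ones of their stage, although CK3-3 did so by little. This gene was lower in T than in CK at both stages. The log2 fold change was -1.76 at DAF60 (standard error 0.43, limma adjusted p = 0.00189) and -1.31 at DAF150 (standard error 0.43, limma adjusted p = 0.0189). At DAF30 the fitted change was 0.23 (limma adjusted p = 0.924), with levels near the rounding step of the table. It passed the minimum of 1 FPKM only through unbagged libraries, so the filter favoured its calls at DAF60 and DAF150, which are given as a description.

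CYP86A8 (MD01G1064900), the family member known in Arabidopsis for cuticle formation, was the copy that was higher under the bag. It was at 7.95, 6.88 and 9.26 FPKM in T1, against 4.80, 7.25 and 9.27 FPKM in CK1. At DAF60 it was at 11.29, 10.83 and 18.09 FPKM in T2, against 4.22, 3.6 and 3.91 FPKM in CK2. At DAF150 it was at 3.75, 4.39 and 1.78 FPKM in T3, against 0.47, 0.93 and 0.89 FPKM in CK3. T1 and CK1 overlapped, while every bagged library of DAF60 and of DAF150 was above every unbagged one of its stage. The T/CK log2 fold change of CYP86A8 was 1.52 at DAF60 (standard error 0.30, limma adjusted p = 0.000481) and 1.24 at DAF150 (standard error 0.30, limma adjusted p = 0.00283). The ratio of the means was 3.43 at DAF60 and 4.33 at DAF150, and the fitted change at DAF30 was 0.19 (95% confidence interval -0.45 to 0.83, limma adjusted p = 0.909).

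**Figure D1:**
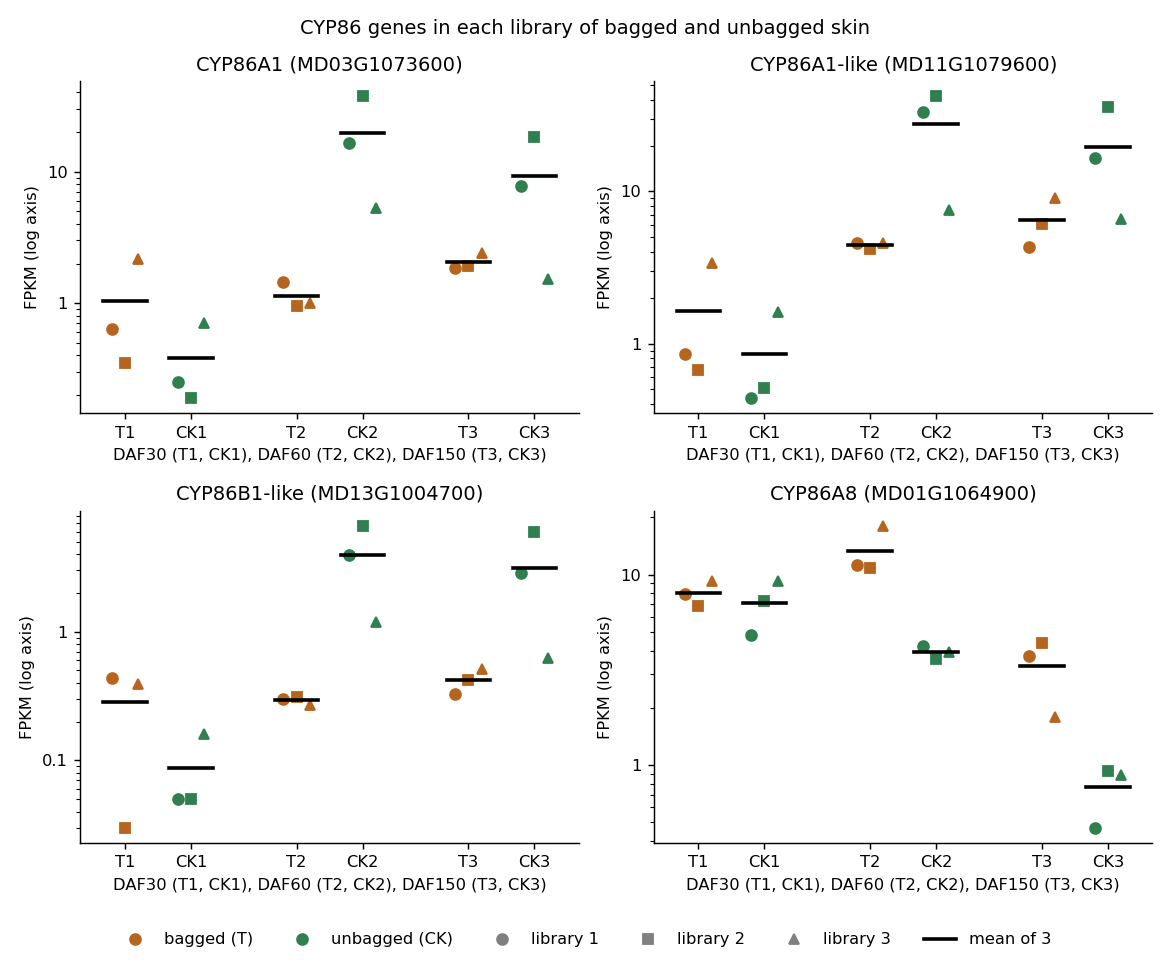
FPKM (log axis) of the 4 CYP86 genes in each library, with T left of CK at DAF30, DAF60 and DAF150, marker shapes for libraries 1 to 3 and a bar at the mean of 3. The 3 genes CYP86A1, CYP86A1-like and CYP86B1-like are highest in CK2 and CK3, with library 2 on top and library 3 at the bottom of both groups, whereas CYP86A8 is highest in T2 and lowest in CK3.

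Read against the whole selected table, the counts of calls were as follows. At DAF30, limma called 0 of the 4 genes (0 at an unadjusted p under 0.05), where 14.4% of all genes tested were called. At DAF60 all 4 were called, 3 lower and 1 higher, while 71.4% of all genes tested were called, 61.9% lower and 9.51% higher. At DAF150 limma called 2, MD13G1004700 lower and MD01G1064900 higher, where 44.0% of all genes were called (31.5% lower and 12.6% higher). Over the mean of the 3 stage differences all 4 were called, with log2 fold changes of -1.25 for MD03G1073600, -0.97 for MD11G1079600, -0.95 for MD13G1004700 and 0.98 for MD01G1064900, where 90.5% of all genes were called, 75.1% lower and 15.4% higher. Because the table was chosen on T against CK, nothing is read from these shares. The filter also favoured the calls of MD13G1004700, which was tested only through unbagged libraries.

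The size of the calls depended in part on unbagged libraries 2 and 3. Without CK2-3 and CK3-3 the changes at DAF150 were -2.10 for MD03G1073600 (limma adjusted p = 0.000889) and -1.81 for MD11G1079600 (limma adjusted p = 0.00359), so all 4 genes were then called. Without CK2-2 and CK3-2 the DAF60 changes were -2.30 for MD03G1073600, -1.65 for MD11G1079600 and -1.35 for MD13G1004700, all still called. Without CK2-3 and CK3-3 they were -3.61 for MD03G1073600, -2.83 for MD11G1079600 and -2.25 for MD13G1004700, also called. Leaving out CK2-2 and CK3-2 left the DAF150 change of MD13G1004700 at -0.82 (limma adjusted p = 0.0661) and its call was lost, as was that of MD11G1079600 over the 3 stages at -0.64 (limma adjusted p = 0.0684). The DAF150 call of MD13G1004700 was also lost without CK3-1 alone (-1.25, limma adjusted p = 0.0565), without CK3-2 alone (-0.82, limma adjusted p = 0.134) or without T3-1 alone (-1.27, limma adjusted p = 0.0523). CYP86A8 kept its calls at DAF60 and DAF150 in both cases, with 1.47 at DAF60 and 1.31 at DAF150 without CK2-2 and CK3-2, and with 1.52 and 1.30 without CK2-3 and CK3-3.

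Subtracting the median of each library (centring), or quantile normalization, moves the median of this mostly lower set towards 0. Part of the common T/CK shift is so removed by construction. After centring, the DAF60 change was -1.77 for MD03G1073600 (limma adjusted p = 0.0222), -0.94 for MD11G1079600 (0.188), -0.60 for MD13G1004700 (0.233) and 2.68 for MD01G1064900 (6.84e-06). The direction of each gene at DAF60 and DAF150 was kept under both scalings, but the calls of MD11G1079600 and MD13G1004700 at DAF60, of MD13G1004700 at DAF150 and of these 2 and MD03G1073600 over the 3 stages were lost under both.

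**Figure D2:**
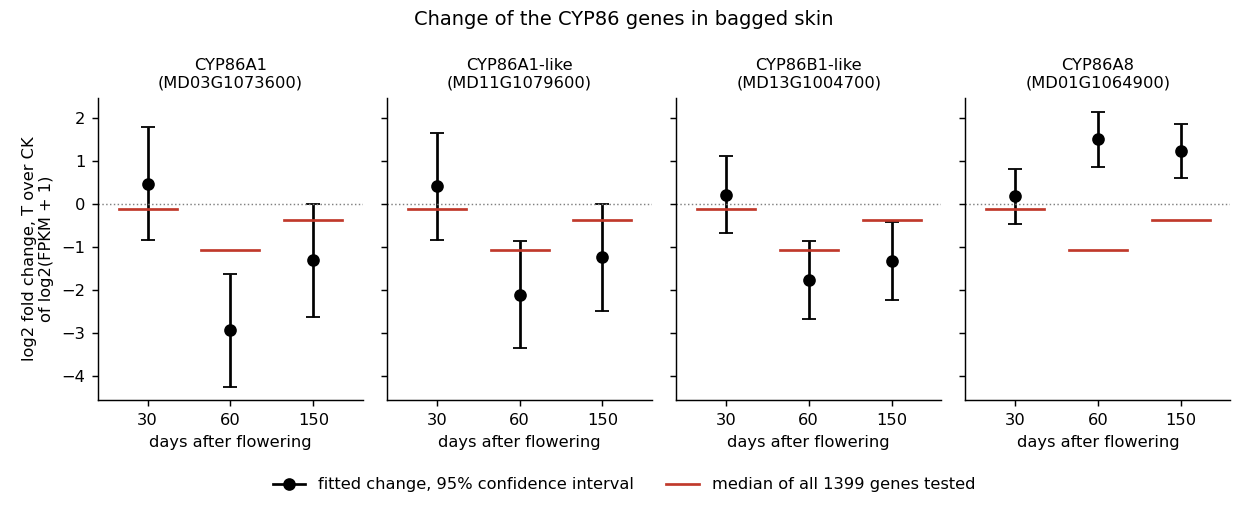
Log2 fold change of T over CK for each CYP86 gene at 30, 60 and 150 days after flowering, with its 95% confidence interval, beside the median of all genes tested (red line) at the same stage. At DAF30 all 4 intervals include 0. At DAF60 the change of CYP86A1 is -2.93 and that of CYP86A8 is 1.52, with the median of all genes at -1.06.

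The T/CK change of every gene differed between DAF60 and DAF30 when the difference itself was tested. This difference was -3.41 for MD03G1073600 (standard error 0.88, limma adjusted p = 0.00834), -2.52 for MD11G1079600 (standard error 0.84, limma adjusted p = 0.0241) and -1.98 for MD13G1004700 (standard error 0.61, limma adjusted p = 0.0177). For MD01G1064900 it was 1.33 in the other direction (standard error 0.43, limma adjusted p = 0.0218). All 4 genes were therefore called, 3 lower and 1 higher, where 43.3% of all genes tested were called, 37.2% lower and 6.15% higher. MD13G1004700 was tested only because of its unbagged levels at DAF60 and DAF150, so the filter favoured its call. The call of MD11G1079600 was lost without CK1-2 (adjusted p = 0.0539 in limma), CK2-1 (0.0625), CK2-2 (0.062) or T1-3 (0.0649), and that of MD01G1064900 without CK1-3 (0.0549) or T2-3 (0.0586). After centring, the differences of MD11G1079600 (-1.62, limma adjusted p = 0.119) and MD13G1004700 (-1.08, limma adjusted p = 0.131) were no longer called.

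From DAF60 to DAF150 the T/CK change did not differ detectably for any of the 4. The differences ran between -0.28 (MD01G1064900, 95% confidence interval -1.18 to 0.63) and 1.62 (MD03G1073600, -0.23 to 3.48), with 0 of 4 genes called by limma (0 at an unadjusted p under 0.05) against 19.3% of all genes tested. Between DAF150 and DAF30 the differences were -1.79 for MD03G1073600, -1.65 for MD11G1079600, -1.54 for MD13G1004700 and 1.06 for MD01G1064900. Here too limma called 0 of 4 (2 at an unadjusted p under 0.05), where 34.5% of all genes tested were called. Without CK3-3 the first 3 of these were called, at -2.58, -2.23 and -2.10.

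The courses within unbagged skin set the copies apart. From DAF30 to DAF60, CYP86A1 rose by 3.57 on the log2 scale in CK (standard error 0.62, limma adjusted p = 0.00034), CYP86A1-like by 3.71 (standard error 0.59, limma adjusted p = 0.000176) and CYP86B1-like by 2.01 (standard error 0.43, limma adjusted p = 0.00128). Their means at DAF30, DAF60 and DAF150 in CK were 0.38, 19.7 and 9.20 FPKM for CYP86A1, 0.85, 27.8 and 19.7 FPKM for CYP86A1-like, and 0.087, 3.94 and 3.15 FPKM for CYP86B1-like. Thus 3 of the 4 genes were called higher in this comparison, where 31.3% of all genes tested were called higher and 13.5% lower. CYP86B1-like (MD13G1004700) reached 1 FPKM only in CK2 and CK3, so the filter itself favoured its call and its rise is given as a description. Without CK2-2 the rises were 2.94 for MD03G1073600, 3.26 for MD11G1079600 and 1.60 for MD13G1004700, and without CK2-3 they were 4.25, 4.44 and 2.51, all called by limma. CYP86A8 went the other way, with a fitted change of -0.69 that missed the threshold (limma adjusted p = 0.0746). That change was called without CK1-1 (-0.91, limma adjusted p = 0.0346), after centring (-1.25, limma adjusted p = 0.00422) and after quantile normalization (-1.03, limma adjusted p = 0.0149).

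After DAF60, CYP86A8 fell in unbagged skin with a log2 fold change of -1.49 (standard error 0.30, limma adjusted p = 0.000507), to 0.76 ± 0.25 FPKM in CK3, against 3.91 ± 0.31 FPKM in CK2 (SD, n = 3 each). It was the 1 gene of the 4 called in this comparison, where 39.7% of all genes tested were called lower, and its call did not hold after quantile normalization (-0.75, limma adjusted p = 0.0593). The fitted changes of the others were -1.10 for CYP86A1 (limma adjusted p = 0.14), -0.46 for CYP86A1-like and -0.31 for CYP86B1-like. Without CK2-3 the change of CYP86A1 was -1.78 (limma adjusted p = 0.0205), and without CK3-2 it was -1.78 (limma adjusted p = 0.0201).

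In bagged skin none of the 4 genes passed the threshold over the same interval. Between DAF30 and DAF60 in T the fitted changes were 0.15 for CYP86A1 (95% confidence interval -1.16 to 1.47), 1.19 for CYP86A1-like (-0.056 to 2.44) and 0.023 for CYP86B1-like (-0.88 to 0.93). That of CYP86A8 was 0.65 (limma adjusted p = 0.129), and limma called 0 of the 4 (1 at an unadjusted p under 0.05), where 27.0% of all genes tested were called. All 3 libraries of CYP86A1-like (MD11G1079600) were higher in T2 than any in T1, and its change was called when only the compared libraries were fitted (1.19, limma adjusted p = 0.0463) and without CK2-3 and CK3-3 (1.19, limma adjusted p = 0.039). After quantile normalization CYP86A1-like (1.71, limma adjusted p = 0.0422) and CYP86A8 (1.21, limma adjusted p = 0.00918) were called higher, and CYP86A8 also after centring (0.99, limma adjusted p = 0.0347). CYP86A8 then fell between DAF60 and DAF150 in T, with a log2 fold change of -1.76 (standard error 0.30, limma adjusted p = 0.000182), the 1 call among the 4, with 16.2% of all genes tested called lower. Its means in T were 8.03, 13.4 and 3.31 FPKM at DAF30, DAF60 and DAF150, and its means in CK were 7.11, 3.91 and 0.76 FPKM. The decline of CYP86A8 after DAF60 was thus measured with and without a bag.

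The order of the 6 groups by mean was the same for CYP86A1, CYP86A1-like and CYP86B1-like, namely CK2, CK3, T3, T2, T1 and CK1 from the highest. For CYP86A1 the neighbours in this order overlapped in their libraries except T3 and T2, and for CYP86A1-like except T2 and T1. For CYP86B1-like, CK3 stood apart from T3 and T3 from T2, and the other neighbours overlapped. For CYP86A8 the order was T2, T1, CK1, CK2, T3 and CK3, with T1 overlapping CK1 and CK2 overlapping T3.

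With these courses, the proportions of the 4 genes within a library differed between T and CK at the later stages. The 4 genes came from a table chosen on T against CK, so this shift follows in part from that choice. Shares are of these 4 only and leave out other CYP86 genes, such as MD16G1003000 (mean 6.21 FPKM in CK2). CYP86A8 made up 61.0% to 86.8% of the summed FPKM of the 4 genes in T1 and 79.0% to 90.6% in CK1. At DAF60 it still made up 64.2% to 75.5% in T2, against 4.0% to 21.8% in CK2. At DAF150 its share was 13.0% to 36.6% in T3, against 1.52% to 9.25% in CK3. The sum of the 4 genes was 16.3 to 24.0 FPKM in T2, against 17.9 to 90.0 FPKM in CK2, so the groups overlapped in the sum but not in the share.

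Within the CYP86A1 pair, MD11G1079600 was the more abundant copy in all 18 libraries. The ratio of MD03G1073600 to MD11G1079600 was 0.52 to 0.73 in T1, against 0.37 to 0.57 in CK1. At DAF60 it was 0.22 to 0.32 in T2, against 0.49 to 0.89 in CK2, the stage at which the 2 groups did not overlap in it. At DAF150 it was 0.26 to 0.43 in T3, against 0.23 to 0.51 in CK3. The ratio was formed after the values were seen and was not tested.

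**Figure D3:**
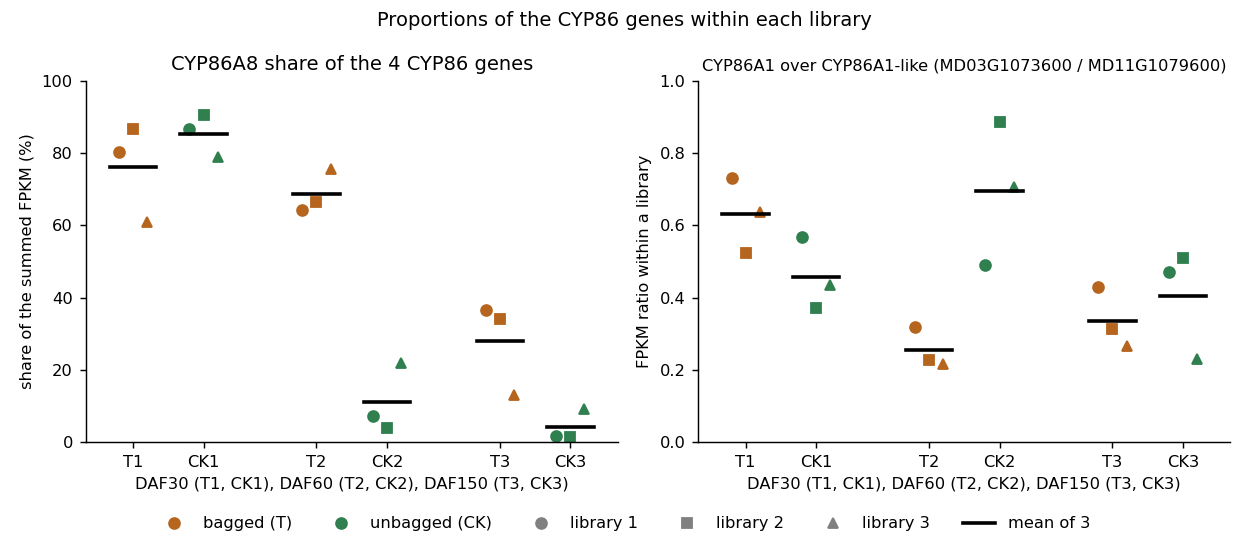
Left, the share of CYP86A8 in the summed FPKM of the 4 CYP86 genes (%), and right, the FPKM ratio of MD03G1073600 to MD11G1079600, in each library with T left of CK and a bar at the mean of 3. The CYP86A8 share is 64.2% to 75.5% in T2 and 4.0% to 21.8% in CK2, and the ratio of the pair is 0.22 to 0.32 in T2 and 0.49 to 0.89 in CK2.

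The table holds 2 more genes described as CYP86B1, which are not among the 4. MD16G1003000 (chromosome 16 from 182053 to 184522, minus strand) had means of 0.47 ± 0.081 FPKM in T2 and 6.21 ± 4.78 FPKM in CK2 (SD, n = 3 each). It was lower in T than in CK at DAF60, with a log2 fold change of -2.03 (standard error 0.51, limma adjusted p = 0.00244). Of its bagged libraries only T3-3 (1.54 FPKM) reached 1 FPKM, so the filter favoured this call. The chromosome of MD16G1003000 and chromosome 13 are known as another duplicated pair. MD13G1004700 was at 0.60 to 0.79 times the level of MD16G1003000 in CK2. MD13G1104800 (chromosome 13 from 7497423 to 7498988, minus strand) stayed below the minimum for testing. It was at 0.26 to 0.34 FPKM in T2, against 0.04 to 0.13 FPKM in CK2, and at 0.27 to 0.66 FPKM in T3, against 0.06 to 0.14 FPKM in CK3, so this CYP86B1 gene lay higher under the bag at a very low level.

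Omega-hydroxy acids are joined to ferulate and to glycerol on the way to suberin and cutin, and genes for these steps were taken from a list of suberin, cutin and wax genes that leaves out CYP86. The list was set by keywords in the descriptions and the KEGG annotation, and 28 of its 43 genes in the table were tested. At DAF60, 19 were called lower and 4 higher in T (61.9% and 9.51% of all genes tested), with a median log2 fold change of -1.29 against -1.06 for all genes tested. At DAF30, 2 were lower and 1 was higher (12.4% and 2.07% of all genes tested), with a median of 0.26 against -0.12. At DAF150, 4 were lower and 2 higher (31.5% and 12.6% of all genes tested), with a median of -0.67 against -0.37. In unbagged skin from DAF30 to DAF60, 14 rose and 4 fell (31.3% and 13.5% of all genes tested), with a median of 0.93 against 0.25 for all genes tested. After centring or quantile normalization the count of lower genes at DAF60 was 5, and the study chose its table on these libraries, so the list is no independent evidence of a direction. The keywords also took in CYP94 genes, some of which oxidise a jasmonate hormone in Arabidopsis, and lipid-transfer proteins with various roles.

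The omega-hydroxypalmitate O-feruloyl transferases, which put ferulate on the product of CYP86A1, were 4 in the tested list. The study had already singled out MD08G1058900, MD09G1007600 and MD17G1011500 as suberin genes on these same libraries. MD06G1137500 was at 6.15, 2.34 and 2.98 FPKM in T2, against 26.62, 38.58 and 10.47 FPKM in CK2, and had a log2 fold change of -2.35 (limma adjusted p = 0.00133). MD09G1007600 and MD17G1011500 were lower in T than in CK at DAF60, with changes of -2.25 and -2.10 (limma adjusted p = 0.00202 and 0.00206). None of these 3 was called at DAF30 or at DAF150, where their fitted changes were -1.37, -1.14 and -1.03. In CK2 and CK3, library 2 was their highest and library 3 their lowest, as for the CYP86A1 pair.

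The fourth, MD08G1058900, carries this name in the KEGG annotation only and is described as a brassinosteroid-related acyltransferase. It was at 14.57, 17.66 and 20.22 FPKM in T2, against 5.96, 8.07 and 5.34 FPKM in CK2, and at 6.87, 18.24 and 11.29 FPKM in T3, against 0.69, 1.83 and 2.50 FPKM in CK3. It was higher in T than in CK at DAF60 (log2 fold change 1.32, standard error 0.40, limma adjusted p = 0.00793) and at DAF150 (2.27, limma adjusted p = 0.000208). All bagged libraries of both stages lay above the unbagged ones, which was also the case for CYP86A8.

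Glycerol-3-phosphate acyltransferases attach the finished acids to glycerol. GPAT5 (MD07G1201800), of the type known for suberin in Arabidopsis, averaged 0.99 ± 0.34 FPKM in T2 and 10.4 ± 6.8 FPKM in CK2 (SD, n = 3 each). Its T/CK log2 fold change at DAF60 was -2.31 (standard error 0.47, limma adjusted p = 0.000545). GPAT5-like (MD01G1136800) had a change of -1.74 (limma adjusted p = 0.00305), and GPAT6-like (MD09G1043100), of the type known for cutin, one of -1.13 (limma adjusted p = 0.00558). At DAF150 the fitted changes were -1.14, -0.82 and -0.006, and none of the 3 was called.

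At the ends of the list over the 3 stages stood genes of other steps. The lowest were a lipid-transfer protein 1-like gene (MD12G1187500, -1.60), CYP94A2-like (MD06G1212400, -1.58) and 3-ketoacyl-CoA synthase 19-like (MD07G1187400, -1.31), an enzyme of chain elongation. MD12G1187500 rested on DAF150, with 2.09, 0.83 and 0.98 FPKM in T3, against 189.13, 9.57 and 42.80 FPKM in CK3. MD07G1187400 had 22.74, 25.01 and 16.52 FPKM in T2, against 304.60, 179.53 and 166.98 FPKM in CK2, and shares its span with another gene model, MD07G1187000. The highest were MD08G1058900 (1.52), lipid-transfer protein 1-like MD04G1173500 (0.90) and lipid-transfer protein MD12G1187200 (0.74).

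**Figure D4:**
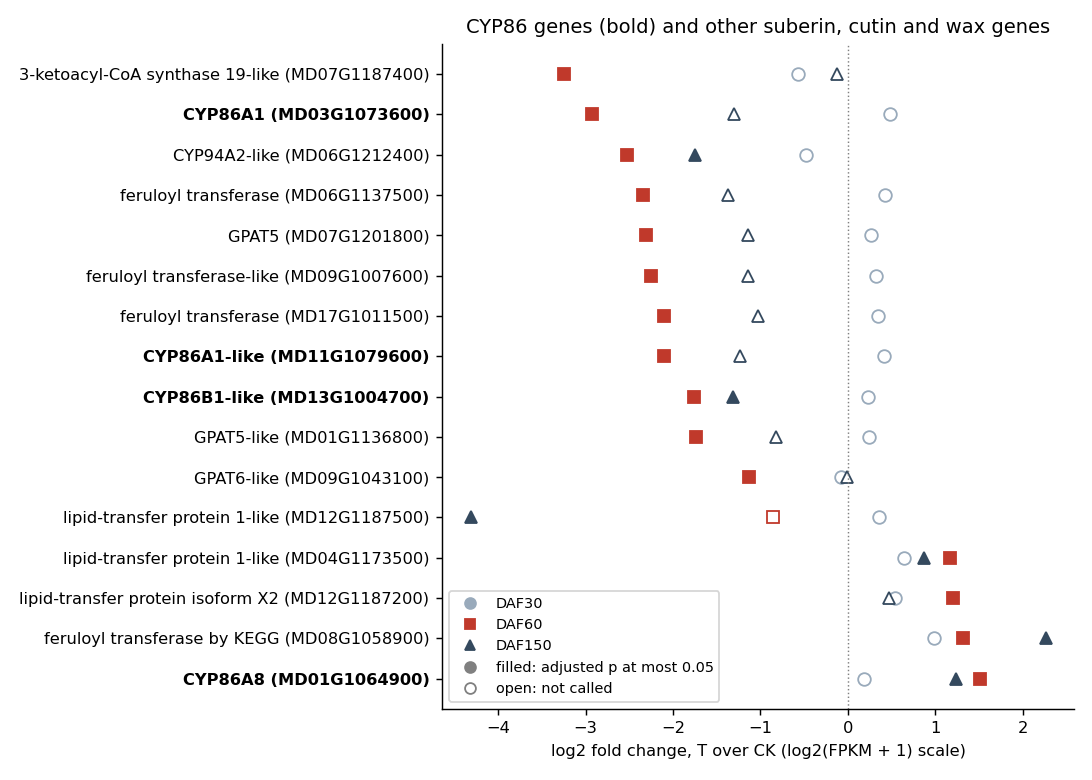
Log2 fold change of T over CK at DAF30 (circles), DAF60 (squares) and DAF150 (triangles) for the 4 CYP86 genes (bold) and the named genes of the suberin, cutin and wax list, filled where called and open where not, in the order of the DAF60 change. CYP86A1 (-2.93 at DAF60), the feruloyl transferases and GPAT5 stand to the left, and CYP86A8 (1.52) stands with the KEGG-named feruloyl transferase MD08G1058900 (1.32) to the right.

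Of the regulator list (MYB factors of the periderm and WIN1/SHINE factors of the cuticle) the table held 1 gene, WIN1-like MD02G1030900, named after a factor that raises cuticle formation in Arabidopsis. It was at 19.94, 10.50 and 21.59 FPKM in T1, against 10.26, 4.82 and 9.15 FPKM in CK1. At DAF60 it was at 9.29, 7.43 and 5.47 FPKM in T2, against 4.03, 3.96 and 3.81 FPKM in CK2, and at DAF150 at 2.63, 1.82 and 0.94 FPKM in T3, against 0.27, 0.31 and 0.04 FPKM in CK3. Bagged libraries were above all unbagged ones at each stage. The log2 fold change was 1.01 at DAF30 (limma adjusted p = 0.0499), 0.74 at DAF60 (limma adjusted p = 0.0537) and 1.17 at DAF150 (limma adjusted p = 0.00776).

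Markers of other cell types also differed between T and CK at DAF60 and DAF150, each list in its own way. The 19 green tissue genes (chlorophyll a-b binding proteins, photosystem subunits, the Rubisco small chain, plastocyanin) summed to 484 to 587 FPKM in T2, against 2268 to 4935 FPKM in CK2, and to 483 to 865 FPKM in T3, against 4216 to 5739 FPKM in CK3. At DAF30 the sums overlapped, at 1745 to 4969 FPKM in T1 and 3062 to 3725 FPKM in CK1. Limma called 16 of the 18 tested lower at DAF60 (61.9% of all genes tested) and 16 at DAF150 (31.5%). In each of T1, CK1, T2 and T3, 1 of the 19 was at 0 in all libraries of that group, not necessarily the same gene. The most abundant, Rubisco small chain MD17G1244400, averaged 221 ± 22 FPKM in T2 and 2292 ± 924 FPKM in CK2 (SD, n = 3 each). In CK2 the green sum was lowest in library 3, as were the 3 suberin-type CYP86 genes, but not in CK3, where the sums of libraries 1 to 3 were 4216, 5739 and 4645 FPKM.

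The 25 genes of vascular and lignified tissue (cellulose synthases of the secondary wall, laccases, fasciclin-like proteins, sieve element proteins) summed to 10.6 to 13.8 FPKM in T2, against 30.7 to 87.5 FPKM in CK2. At DAF150 they summed to 38.3 to 214 FPKM in T3, against 18.6 to 72.7 FPKM in CK3. Of the 15 tested, 1 was called higher and 5 lower at DAF60 (9.51% and 61.9% of all genes tested). The median log2 fold change of the 15 was -0.15, against -1.06 for all genes tested. At DAF150, 10 were higher and 2 lower (12.6% and 31.5%), with a median of 1.64 against -0.37 for all genes tested. The most abundant, laccase-3-like MD11G1057600, was at 2.01, 2.19 and 2.47 FPKM in T2, against 24.27, 50.49 and 4.83 FPKM in CK2, the order of libraries seen in the CYP86A1 pair. At DAF150 it was at 2.10, 3.55 and 3.20 FPKM in T3, against 6.06, 23.02 and 4.06 FPKM in CK3, with a log2 fold change of -1.29 (limma adjusted p = 0.116) that lay opposite to the median of its list. At DAF30 the sums were 17 to 23.4 FPKM in T1 and 10.8 to 20.7 FPKM in CK1. Of the 25 genes, 4 were at 0 in all libraries of T2, 3 in CK1 and 1 in each other group. The part of either cell type in the CYP86 results was not tested.

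The genes most like each CYP86 gene over the 18 libraries were found by Pearson correlation of log2(FPKM + 1), as a description of 6 groups that differ in stage and bagging. For MD03G1073600 they were ABC transporter G family member 32-like MD15G1145300 (r = 0.994), GDSL esterase/lipase MD11G1210200 (0.991) and feruloyl transferase-like MD09G1007600 (0.990). For MD11G1079600 they were the lipid-transfer protein-like genes MD11G1282300 (0.988) and MD11G1282200 (0.981), with caffeic acid 3-O-methyltransferase-like MD07G1300200 (0.987) between them. For MD13G1004700 they were phosphatidylinositol transfer protein SFH3-like MD10G1070400 (0.989), WRKY transcription factor 24 MD01G1071600 (0.980) and CYP86B1 MD16G1003000 (0.977). All of these had their highest mean in CK2, for example 0.98 FPKM in T2 and 12.7 FPKM in CK2 for MD15G1145300.

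CYP86A8 had other neighbours, none above a correlation of 0.949. They were omega-3 fatty acid desaturase of the endoplasmic reticulum MD03G1067900 (0.949), TMEM136-like MD08G1024400 (0.947) and serpin-ZX-like MD08G1041600 (0.946). The desaturase, which makes trienoic fatty acids, averaged 12.6 FPKM in T2 and 3.31 FPKM in CK2, and 1.26 FPKM in T3 and 0.087 FPKM in CK3. Among the CYP86 genes, MD03G1073600 correlated at 0.945 with MD11G1079600 and at 0.974 with MD13G1004700, and MD11G1079600 at 0.909 with MD13G1004700. CYP86A1-like (MD11G1079600) ranked 52nd of 1398 genes by likeness to MD03G1073600. CYP86A8 correlated at -0.52 to -0.56 with the other 3.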

How the data were processed

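The authors sequenced the libraries on the BGISEQ-500 platform, used Bowtie2 for mapping (apple genome GDDH13 v1.1), and deposited the FPKM of each gene with 2 decimals. Which tool counted fragments, and which test gave their calls, is not given in the sources used here. Their own log2 ratios and q-values, deposited by the authors in the same table, served only to see how the table was selected. The thresholds were a fold of at least 2 and a q-value of at most 0.001. All per-sample columns matched a sample (0 did not).

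log2(FPKM + 1) of 1399 genes (1 FPKM or more in 3 or more libraries) was fitted with limma 3.58.1 (statmod 1.5.0, R 4.3.3). The model had the 6 groups with 12 residual degrees of freedom, variance trend and robust moderation. It was also run on simulated data in which a minority of genes changed, in either direction. That setting differs from this mostly lower table, so nothing on accuracy here is read from that run. Libraries were taken as independent. No count test could be run on FPKM, and depth and counting error are unknown. Alternatives were other pseudocounts, filters, scalings, models and left-out libraries. The CYP86 genes and the gene lists were chosen with earlier results of these data known. Named genes are the 4 CYP86 genes, the 3 most correlated genes of each, the 3 lowest and 3 highest of the suberin, cutin and wax list over the 3 stages with its feruloyl and glycerol-3-phosphate acyltransferases, and the most abundant marker of each other list. The other CYP86B1 genes and MD03G1073200 were named after their values were seen. Figures used matplotlib 3.10.9 in Python 3.11.15.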

Additional observations from a re-analysis of the deposited data

Results flagged for a closer look

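The change of the CYP86 genes under the bag differed between 2 stages by a test of the difference itself (limma, T/CK at DAF60 minus T/CK at DAF30, on the log2 scale). It was -3.41 for MD03G1073600, -2.52 for MD11G1079600, -1.98 for MD13G1004700 and 1.33 for MD01G1064900. MD13G1004700 was tested only because of its unbagged levels, so the filter favoured its call. After centring or quantile normalization the calls of MD11G1079600 and MD13G1004700 were lost. Those of MD11G1079600 and MD01G1064900 were also lost when certain single libraries were left out. The cause of the difference was not tested.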

How the results depend on the processing

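Of the 44 results of single CYP86 genes, the 19 called ones kept their direction under every alternative tried, and calls changed as follows. A stricter filter (FPKM of at least 5) or a fit of only the libraries compared left 1 call at DAF150, against 2. Median centring left 2 calls at DAF60, 1 at DAF150, 1 over the 3 stages and 2 for DAF60 against DAF30, and gave 1 for DAF150 against DAF30 and 1 for DAF60 against DAF30 in T. Quantile normalization left 2, 1, 1 and 2 in the same order, with 0 for DAF150 against DAF60 in CK and 2 for DAF60 against DAF30 in T. The suberin, cutin and wax genes lower at DAF60 were then 5 under either scaling. Quantile normalization gave 1 lower and 2 higher at DAF30 and 2 lower at DAF150, and a pseudocount of 0.1 gave 0 higher at DAF30.

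For DAF150 against DAF30, pseudocounts of 0.1 or 0.5 gave 2 calls, and limma without trend and robust moderation, or fitted to the compared libraries only, 1. The fit of the compared libraries gave 1 call for DAF60 against DAF30 in T. Leaving out 1 library at a time gave 1 to 4 calls at DAF150 (4 without CK3-3, and 1 without CK3-1, CK3-2 or T3-1), 0 to 3 for DAF150 against DAF30 and 1 to 2 for DAF150 against DAF60 in CK. Without CK2-2 and CK3-2 there was 1 call at DAF150. Without CK2-3 and CK3-3 there were 4, with 3 for DAF150 against DAF30 and 1 for DAF60 against DAF30 in T.

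Results that were not called and turned direction were MD01G1064900 for DAF150 against DAF60 of T/CK (0.22 with a pseudocount of 0.1, and -0.47 to 0.013 with 1 library left out, the highest without T3-3) and at DAF30 (-0.036, without CK1-1, to 0.38). MD13G1004700 turned for DAF150 against DAF60 of T/CK (-0.26 centred, -0.080 quantile normalized, and -0.12, without CK3-3, to 0.94) and in CK (0.36 and 0.28 under these scalings, and -0.81 to 0.25, with 0.098 without CK2-2 and 0.25 without CK3-3). MD11G1079600 turned in CK from DAF60 to DAF150 (0.21 centred, and -1.18 to 0.13, without CK3-3) and at DAF30 (-0.017, without T1-3, to 0.69). The DAF60 against DAF30 change in T was -0.095 to 0.52 for MD03G1073600 and -0.13 to 0.11 for MD13G1004700, both lowest without T1-2. Beyond the scaling's own construction and the smaller sets, the cause was not tested.

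Libraries of the same number were not taken as paired. Their deviations from the group means correlated at -0.35 to 0.18 between T and CK of a stage, and at -0.071, 0.26 and 0.39 between CK2 and CK3, where MD03G1073600, MD11G1079600 and MD13G1004700 were lower in CK3 for each number. Under the block those 3 changes were not called (-1.10, -0.46 and -0.31, limma adjusted p = 0.143, 0.543 and 0.535). With a replicate block there was 1 call for DAF150 against DAF30 (MD13G1004700, -1.54, limma adjusted p = 0.0479), against 0, and no other call changed. MD13G1004700 had no value under the stricter filter. The unknown depth limits MD13G1004700 and the DAF30 values most.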
